A study of Mus musculus with 6 samples.

Results

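The genes of the proteasome subunits were examined in mouse alveolar type II cells, the surfactant-secreting cells of the lung that also serve as progenitors of alveolar type I cells. The members were chosen by name from the count tables: symbols made of Psma, Psmb, Psmc, Psmd, Psme or Psmf and a number, without the interferon-inducible subunits Psmb8, Psmb9 and Psmb10, and with at least 10 counts summed over all libraries. Of 23337 gene symbols 41 matched the names and 40 were kept. Psmb11, the thymus-specific catalytic subunit, was just inside the threshold with 28 counts in all, and Psma8, the subunit of testis proteasomes, was just outside with 4 counts, all of them in mutant 1.

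The mutant mice had the genotype SpC-CreER/Dlk1flox/ROSA-Tomato and the wild-type mice SpC-CreER/ROSA-Tomato, so both groups carried an inducible Cre under the promoter of the surfactant protein C gene (SpC) and a red reporter, and the mutants in addition a floxed Dlk1, the gene of a membrane protein related to Notch ligands. All mice had acute lung injury induced by Pseudomonas aeruginosa, and labelled cells were sorted at 10 days after injury. The age of the mice is not in the labels, one protocol also mentions a culture step, and nothing states that each library came from its own animal, so p-values measure the spread between these libraries, which may be technical. There were 3 mutant and 3 wild-type libraries with 22511461 to 30695994 counts each.

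The summed level of 10 type II cell markers was 150915 to 166665 counts-per-million (CPM) in the mutant libraries and 166389 to 191281 CPM in the wild-type libraries. Dlk1 itself had 0 to 2 counts in every library of either group, so it did not check the labels. Mutant 1 stood apart: its 5 leukocyte markers summed to 421 CPM and its 4 club cell markers to 8660 CPM, where the other 5 libraries had 4.86 to 23.7 CPM and 485 to 786 CPM. It was also far above them in fibroblast markers, at 213 CPM against 3.37 to 6.82 CPM, and endothelial markers, at 69.2 CPM against 2.33 to 5.29 CPM. It was the highest library for ciliated, lymphocyte, macrophage, neutrophil, mesothelial and erythroid markers too. In such bulk samples, fewer cells of a type and less RNA per cell cannot be told apart.

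The proteasome degrades proteins tagged with ubiquitin. Its barrel-shaped 20S core has outer rings of alpha subunits, which gate the entrance, and inner rings of beta subunits, of which Psmb6, Psmb7 and Psmb5 carry the caspase-like, trypsin-like and chymotrypsin-like active sites. The 19S regulatory particle binds and removes ubiquitin chains and unfolds the substrate with a ring of ATPases. Other activators can cap the core, and in cells exposed to interferon Psmb9, Psmb10 and Psmb8 replace the constitutive catalytic subunits. Transcription of the subunit genes is known to be raised together by Nfe2l1 (NRF1) when proteasome activity is short.

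Transcripts of the proteasome subunits were abundant and close to constant between mutant and wild-type cells. As a share of each library, the members made up 0.255% ± 0.00825 of the counts in mutants, against 0.249% ± 0.00643 in wild types (SD, n = 3 each). These shares used library totals without a scaling factor, and their order depended on that. Mutant 1 had the highest share, 0.264%, but after scaling by its factor of 1.07 it had the lowest median deviation of the members, -0.038 (log2). Of the 40 members 39 passed the filter on low counts, and the exception was Psmb11. None of the 39 was called by edgeR's quasi-likelihood test at a threshold of 5% after Benjamini-Hochberg adjustment, and 0% of the 12899 genes tested were (lowest member adjusted p = 0.739, for Psma7). At an unadjusted p under 0.05 there were 0 of 39 members, against 6.58% of all tested genes. DESeq2 called 0 members at an adjusted p of 5%, against 0.299% of all genes with an adjusted p, and both DESeq2 and limma-voom also had 0 members at an unadjusted p under 0.05.

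The differences were small as well as not called. Log2 fold changes, mutant minus wild type, ran from -0.17 for Psma7 to 0.17 for Psme4, with a median of -0.02 over the members and 0.0048 over all tested genes. They were positive for 14 members (35.9%) and negative for 25, where 51.1% of all tested genes were positive. Among tested genes within the members' range of mean level 45.7% were positive, with a median log2 fold change of -0.016, so part of this lean is shared by genes of that level. The 95% interval lay within 1.5-fold in either direction for 39 of 39 tested members, compared with 58.3% of all tested genes and 85.4% of the 7246 genes within the members' range of mean level (12.6 to 183 CPM). It lay within 0.32 of 0 on the log2 scale for 30 members (76.9%), compared with 22.4% of all genes and 35.6% of genes in that range. The mutant and wild-type libraries did not overlap for 7 of 39 members, against 11.7% of all tested genes. These 7 were Psma5, Psma6, Psma7, Psmb6 and Psmd7, lower in the mutants, and Psmc4 and Psmd2, higher in the mutants. These gaps depended on the scaling: with upper-quartile factors 2 of 39 did not overlap, Psma5 and Psmd7, and with DESeq2 size factors 7 did not, with Psmd6 in place of Psmb6.

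**Figure D1:**
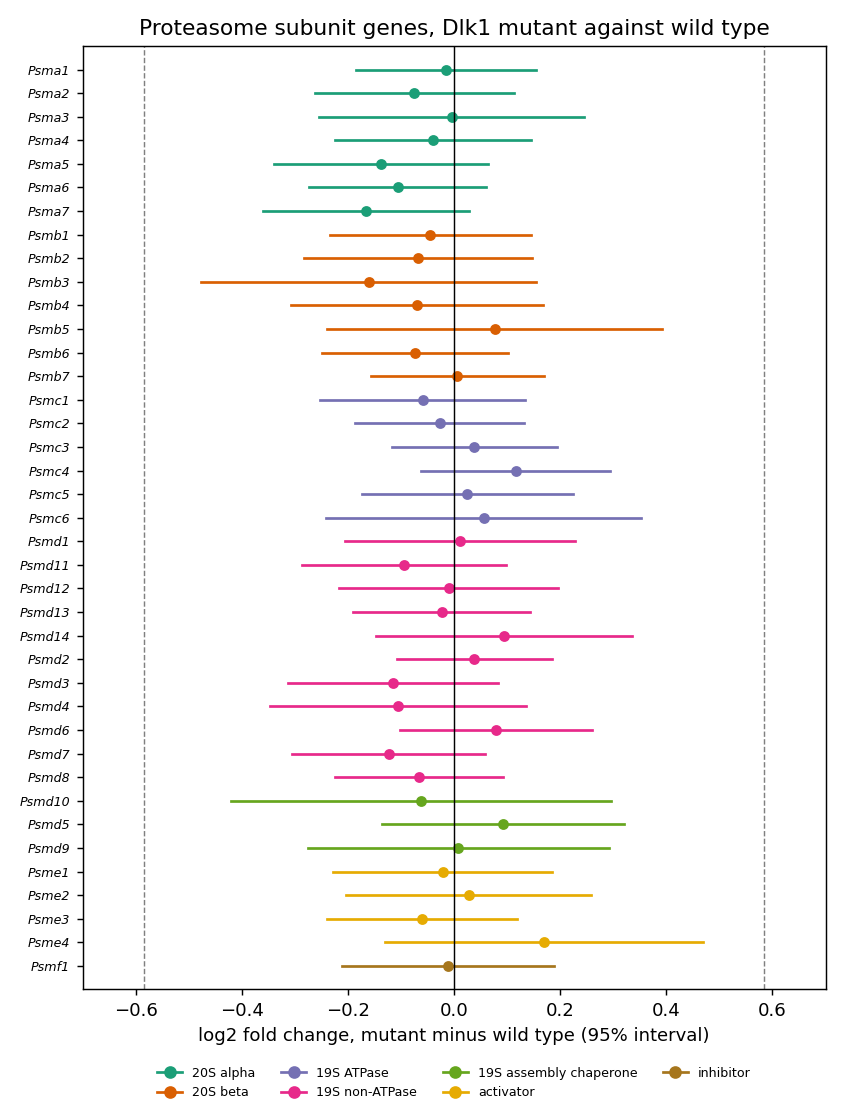
Log2 fold change of each of the 39 tested proteasome genes, mutant minus wild type, with its 95% interval (edgeR, n = 3 each). Genes are grouped by role, the solid line marks no difference and the dashed lines mark 1.5-fold. All 39 intervals cross 0 and stay between the dashed lines.

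The members also varied little between single libraries. The SD of log2 CPM over the 6 libraries had a median of 0.08 among members, with a range of 0.02 to 0.19. The same median was 0.19 over all tested genes and 0.14 over genes in the same range of level. The highest library exceeded the lowest by a median of 1.16-fold among members, compared with 1.43-fold over all genes and 1.30-fold in that range. Psmd2 was the steadiest member at 1.05-fold, and Psme4 varied most at 1.47-fold. No library held the extremes: mutant 1 was the lowest of the 6 for 10 members and the highest for 3, mutant 2 the lowest for 7 and the highest for 9, and wild type 2 the lowest for 4 and the highest for 11.

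Since subunit genes are known to be raised together through antioxidant response elements, their promoters were searched for the core of that element, TGACNNNGC, on both strands. RefSeq windows of GRCm38.p6 from 250 bases before to 50 bases after the start matched 34 members in 37 windows, while Psmb1, Psmb2, Psmb7, Psmc3, Psmd3 and Psmd7 had no entry. The core was present in 6 of 37 windows, a share of 16.2% (exact Clopper-Pearson 95% interval 6.19% to 32.0%), and in 12.4% of all 32851 windows. One of the sequences that fit this core, TGACTCAGC, was found in 0 of 37 member windows and in 0.454% of all windows. The box CCAAT, bound by NF-Y, was found in 13 of 37 member windows (35.1%) and in 37.4% of all windows. For TGACNNNGC and CCAAT the share over all windows lay inside the interval of the member share, which for CCAAT was 20.2% to 52.5%. With 37 windows these intervals are wide, so a moderate difference could not be seen. They treat the 37 windows as independent, though these come from 34 members. For TGACTCAGC, which is rare over all windows, 0 of 37 decides nothing (interval up to 9.49%). The windows around the 6 matches are shown on the strand of the gene with the match in capitals, since they include Psmb5 and Psmb6, which encode catalytic subunits. For Psmc6, Psmd12 and Psme4 the match is on the opposite strand and the capitals are its reverse complement.
Psmb5 (chr14:54618024-54618052, minus strand): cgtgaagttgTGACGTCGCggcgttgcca
Psmb6 (chr11:70525338-70525366, plus strand): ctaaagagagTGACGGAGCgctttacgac
Psmc6 (chr14:45329587-45329615, plus strand): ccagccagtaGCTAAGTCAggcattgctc
Psmd9 (chr5:123228149-123228177, plus strand): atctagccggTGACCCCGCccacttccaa
Psmd12 (chr11:107479278-107479299, plus strand): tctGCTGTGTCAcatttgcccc
Psme4 (chr11:30771758-30771786, plus strand): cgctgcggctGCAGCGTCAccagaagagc
Counted from the transcription start, the match began at position -47 in Psmb5, -9 in Psmb6, -31 in Psmd9, -7 in Psme4, -227 in Psmc6 and -247 in Psmd12. The log2 fold changes of these genes were 0.08 for Psmb5, -0.07 for Psmb6, 0.06 for Psmc6, 0.01 for Psmd9, -0.01 for Psmd12 and 0.17 for Psme4. All 6 had 95% intervals across 0, so none has an established direction.

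Levels of different subunits were compared per length, as mean TMM-normalised CPM over the 6 libraries per kilobase of transcript or of coding sequence. TMM, the trimmed mean of M-values, is a factor that scales each library. The counting rule and its annotation are not named, so reads shared with or lost to other genes could shift the level of a gene, which was not tested. The 6 ATPases of the 19S particle were the most even group, from 29.4 CPM per kilobase of transcript for Psmc6 to 47.4 for Psmc3, and from 39.3 to 58.4 CPM per kilobase of coding sequence. The 7 tested beta subunits were spread from 14.0 CPM per kilobase of transcript for Psmb5 to 87.9 for Psmb6, and the 7 alpha subunits from 11.96 for Psma3 to 61.2 for Psma7. Psmb5 was far below the other beta subunits on either measure: the next lowest, Psmb3, had 41.3 CPM per kilobase of transcript, and per kilobase of coding sequence Psmb5 had 15.9 CPM, the lowest of all 39 members. Psme1 was the highest member on either measure, at 164.9 CPM per kilobase of transcript and 245 CPM per kilobase of coding sequence. For genes such as Psma2, Psma3, Psmf1 and Psme3 the place in the order depended on the length used, since their annotated transcripts are several times longer than their coding sequences. The assembly chaperones Psmd5, Psmd9 and Psmd10 held ranks 35, 39 and 38 of 39 by transcript length and ranks 32, 36 and 38 by coding length.

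**Figure D2:**
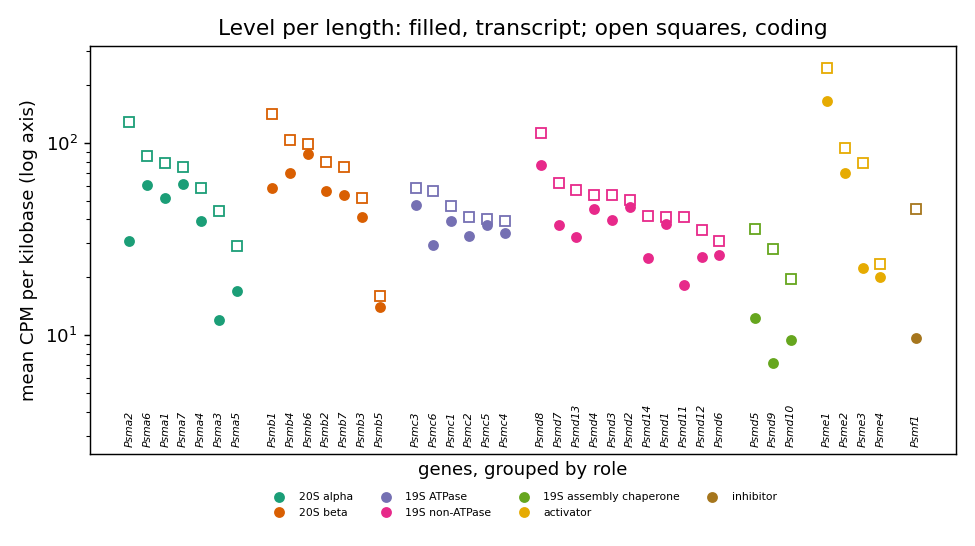
Mean TMM-normalised CPM over the 6 libraries per kilobase, on a log axis, for the 39 tested proteasome genes grouped by role. Filled circles use the transcript length and open squares the coding length. Psme1 lies highest on both measures, and Psmb5 lies below the other beta subunits.

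The 7 alpha subunits of the 20S core all had log2 fold changes below 0 with TMM scaling, and none passed the test. With DESeq2 size factors or upper-quartile factors 6 of 7 were below 0, and likewise without mutant 3, wild type 1 or wild type 2, where Psma3 or Psma1 was above 0. Together they reached 362, 361 and 362 CPM in mutants 1, 2 and 3, against 379.7, 395 and 369.5 CPM in wild types 1, 2 and 3, a mean ratio of 0.948. With this scaling the groups did not overlap, and the exact permutation test gave p = 0.1, two-sided, which is the smallest that 3 against 3 allows. With libraries paired by number, the exact sign-flip test gave p = 0.25, also the smallest possible. With upper-quartile factors they overlapped (372, 354 and 362 CPM in the mutants, against 381, 394 and 366 CPM in the wild types, exact permutation p = 0.2). Psma7 led, with 53.4, 49.03 and 55.6 CPM in the mutants, against 61.3, 59.9 and 56.3 CPM in the wild types. Its log2 fold change was -0.17 ± 0.08 (SE, edgeR adjusted p = 0.739). Mutant 3 and wild type 3 lay within 1 CPM of each other, so the gap between the groups rested on a narrow margin. Psma5 had 19.999, 20.4 and 19.9 CPM in the mutants, against 21.4, 21.5 and 23.3 CPM in the wild types, and Psma6 had 61.2, 60.5 and 59.8 CPM in the mutants, against 64.3, 68.3 and 62.9 CPM in the wild types. With TMM scaling both were lower in each mutant than in each wild type, with log2 fold changes of -0.14 and -0.11. Psma2, the alpha subunit with the highest CPM, had 87.01, 87.5 and 89.1 CPM in the mutants, against 88.4, 101.4 and 87.8 CPM in the wild types, where wild type 2 alone stood high. Psma1, Psma3 and Psma4 had log2 fold changes of -0.01, -0.0047 and -0.04, and their groups overlapped.

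Of the 7 tested beta subunits 5 had negative and 2 positive log2 fold changes. Their role sum, in which Psmb11 was included, was 407.7, 391.5 and 407.5 CPM in the mutants, against 421, 428 and 405 CPM in the wild types, with wild type 3 below mutants 1 and 3 (exact permutation p = 0.3, two-sided). Among the catalytic subunits, Psmb6 had 70.9, 63.6 and 70.5 CPM in the mutants, against 71.02, 72.2 and 72.5 CPM in the wild types. With TMM scaling its groups did not overlap, though mutant 1 and wild type 1 were almost level, and the log2 fold change was -0.07 with a 95% interval from -0.25 to 0.10. Psmb7 had 61.6, 64.1 and 61.9 CPM in the mutants, against 64.2, 60.5 and 62.02 CPM in the wild types, a log2 fold change of 0.01 (95% interval -0.16 to 0.17). Psmb5 had 13.1, 13.3 and 12.3 CPM in the mutants, against 13.8, 10.9 and 12.1 CPM in the wild types, a log2 fold change of 0.08 (95% interval -0.24 to 0.39), and it was the least tightly measured of the catalytic genes. The groups overlapped for Psmb7 and for Psmb5.

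Of the structural beta subunits, Psmb3 had the smallest p. It had 35.0, 24.5 and 30.04 CPM in the mutants, against 33.8, 34.1 and 32.3 CPM in the wild types. Mutant 1 was the highest library and mutant 2 the lowest, and the log2 fold change of -0.16 ± 0.13 (SE) had an edgeR adjusted p of 0.803. Without mutant 1 it was the single member at an unadjusted p under 0.05, where 5.85% of all genes tested were, and its log2 fold change was -0.29 with an adjusted p of 0.819. Without mutant 2 its log2 fold change was -0.04. Psmb1, the beta subunit with the highest CPM, had 99.1, 100.2 and 102.8 CPM in the mutants, against 99.03, 113.9 and 98.8 CPM in the wild types. As for Psma2, wild type 2 was the high one and the others lay together. Psmb2 and Psmb4 had log2 fold changes of -0.07 each, with overlapping groups. Psmb11 had 1, 12 and 3 counts in the mutants, against 0, 5 and 7 counts in the wild types, too few for a fold change.

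The 6 ATPases of the 19S particle, Psmc1 to Psmc6, form the ring that unfolds substrates. Of them 4 had positive and 2 negative log2 fold changes, and the sum was 353, 379 and 363.5 CPM in the mutants, against 352.7, 359.8 and 366 CPM in the wild types (exact permutation p = 0.6, two-sided). With upper-quartile factors the ATPase sum was higher in each mutant, at 363, 372 and 364 CPM in the mutants, against 354, 359 and 362 CPM in the wild types (exact permutation p = 0.1, the smallest possible). Psmc4 had 51.0, 49.2 and 53.4 CPM in the mutants, against 46.7, 46.2 and 48.9 CPM in the wild types. With TMM scaling it was higher in each mutant than in each wild type, by a log2 fold change of 0.12 ± 0.08 (SE, edgeR adjusted p = 0.768). Psmc3, the ATPase with the highest CPM, had 79.1, 79.3 and 77.2 CPM in the mutants, against 77.1, 73.98 and 78.3 CPM in the wild types. These ranges overlapped, and the log2 fold change was 0.04 with an interval from -0.12 to 0.19. Psmc6 varied most among the ATPases, with 53.6 CPM in wild type 1 and 61.4 to 72.7 CPM in the other 5 libraries. Psmc1 and Psmc2 had log2 fold changes of -0.06 and -0.03.

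The 11 non-ATPase subunits of the 19S particle include the scaffold proteins Psmd1 and Psmd2, the ubiquitin receptor Psmd4 and the deubiquitinase Psmd14. Of them 4 had positive and 7 negative log2 fold changes, and the sum was 799.996, 807 and 821 CPM in the mutants, against 813, 839 and 828 CPM in the wild types (exact permutation p = 0.2, two-sided). Psmd2, with the highest CPM of the group, had 140.5, 137.1 and 138.8 CPM in the mutants, against 134.3, 135.5 and 135.8 CPM in the wild types. With TMM scaling every mutant was above every wild type, but the log2 fold change was 0.04 with an interval from -0.11 to 0.18 and an edgeR adjusted p of 0.897. Psmd7, a structural partner of Psmd14, had 53.7, 58.2 and 58.5 CPM in the mutants, against 64.7, 59.4 and 61.6 CPM in the wild types. It was lower in each mutant, by a log2 fold change of -0.12 ± 0.08 (SE, edgeR adjusted p = 0.756). Psmd3 had 86.0, 75.5 and 84.2 CPM in the mutants, against 84.5, 94.8 and 86.9 CPM in the wild types, with mutant 1 above wild type 1. The log2 fold changes of the other 8 ran from -0.11 for Psmd4 to 0.09 for Psmd14, with overlapping groups.

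Psmd5, Psmd9 and Psmd10 carry subunit names but are chaperones of 19S assembly that leave the finished particle. They summed to 82.7, 87.8 and 91.6 CPM in the mutants, against 81.3, 89.4 and 82.7 CPM in the wild types (exact permutation p = 0.5, two-sided). Psmd5 had 49.2, 59.9 and 57.3 CPM in the mutants, against 49.3, 53.8 and 52.9 CPM in the wild types, a log2 fold change of 0.09 (95% interval -0.14 to 0.32). Mutants 2 and 3 were the highest libraries and mutant 1 was the lowest, and the log2 fold change was 0.03 without mutant 2 and 0.17 without mutant 1. Psmd10, also known as gankyrin and located on the X chromosome, had a log2 fold change of -0.06, and Psmd9 of 0.01.

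Among the activators, Psme1 and Psme2 form the PA28 cap, which is known to be raised by interferon gamma, Psme3 forms the nuclear PA28 gamma cap, and Psme4 encodes PA200. Psme1 had 183, 172 and 190.5 CPM in the mutants, against 192, 194 and 167 CPM in the wild types, a log2 fold change of -0.02 (95% interval -0.23 to 0.18). Psme2, whose reads can be shared with the near-identical copy Psme2b, had a log2 fold change of 0.03. For both genes wild type 3 was the lowest library. Psme4 had 122, 154.7 and 135 CPM in the mutants, against 105, 123 and 138 CPM in the wild types. Each group spanned a wide range and they overlapped, with a log2 fold change of 0.17 ± 0.13 (SE) and an edgeR adjusted p of 0.790. It was 0.07 without mutant 2 and also without wild type 1, and 0.26 without wild type 3. Psme3 had a log2 fold change of -0.06. The activators summed to 429, 449.8 and 458 CPM in the mutants, against 424, 453 and 426 CPM in the wild types (exact permutation p = 0.4, two-sided). Psmf1, the gene of the inhibitor PI31, had 36.9, 37.5 and 35.1 CPM in the mutants, against 38.8, 37.2 and 34.3 CPM in the wild types, a log2 fold change of -0.01 (95% interval -0.21 to 0.19, exact permutation p = 0.9, two-sided).

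**Figure D3:**
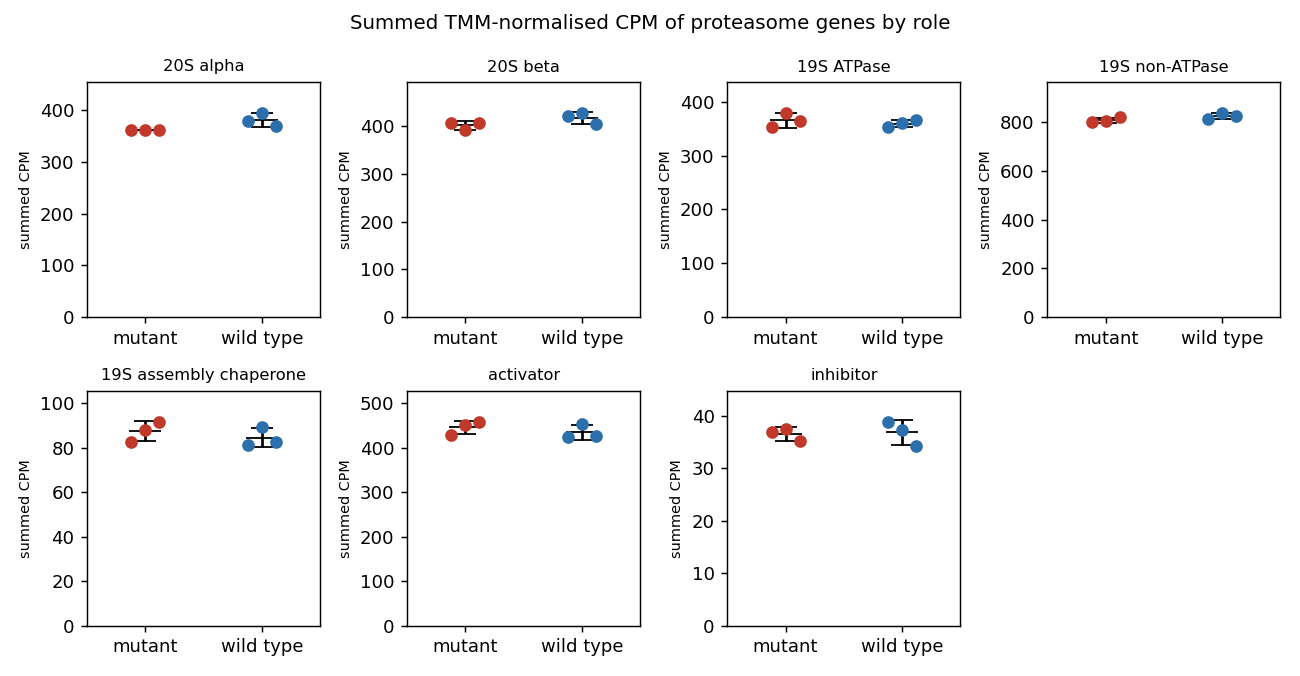
Summed TMM-normalised CPM of the proteasome genes of each role, from 0, in the mutant (left) and wild-type (right) libraries. Points are libraries, and bars show the mean and SD (n = 3 each). With this scaling the alpha subunits are the only role whose groups do not overlap, at 361 to 362 CPM in the mutants, against 369.5 to 395 CPM in the wild types, and with upper-quartile factors it is the ATPases.

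Within this narrow spread, the members parted along the base composition of their transcripts in some libraries, a pattern chosen for description after the values were seen. GC content of the 39 tested members ran from 37.0% to 58.3%. The correlation across members between GC content and the deviation of log2 CPM from the mean of the 6 libraries was 0.34, -0.37 and -0.07 in mutants 1, 2 and 3, against 0.46, -0.11 and -0.20 in wild types 1, 2 and 3 (Pearson's r, n = 39 genes that share their libraries, so not independent points). Over the 11299 tested genes with a GC value it had the same sign in each library, at 0.08, -0.17 and -0.06 in the mutants, against 0.18, -0.02 and -0.08 in the wild types. In wild type 1 the GC-poor Psmc6, Psme4 and Psmd14 were low, at -0.29, -0.29 and -0.19 from their means, but the GC-poor Psma3 and Psmd10 were above theirs, at 0.13 and 0.05. Mutant 2 was the highest library for Psme4 and Psmd14 and the lowest for the GC-rich Psmb3, Psmd3 and Psmd4, but the GC-rich Psmb5 was above its mean by 0.09 and the GC-poor Psmd10 was at -0.32. In these libraries transcript length went with it: the members' correlation with log2 transcript length was 0.47 in mutant 2 and -0.45 in wild type 1. Over all genes with a value that correlation was 0.08 and -0.14. Among members it was -0.20 and 0.05 in mutants 1 and 3, against -0.03 and 0.02 in wild types 2 and 3. The sign of this pattern differed between libraries of the same group. With a per-library correction for GC content, added after seeing the data, the members' log2 fold changes ran from -0.14 to 0.16, and 0 were called.

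**Figure D4:**
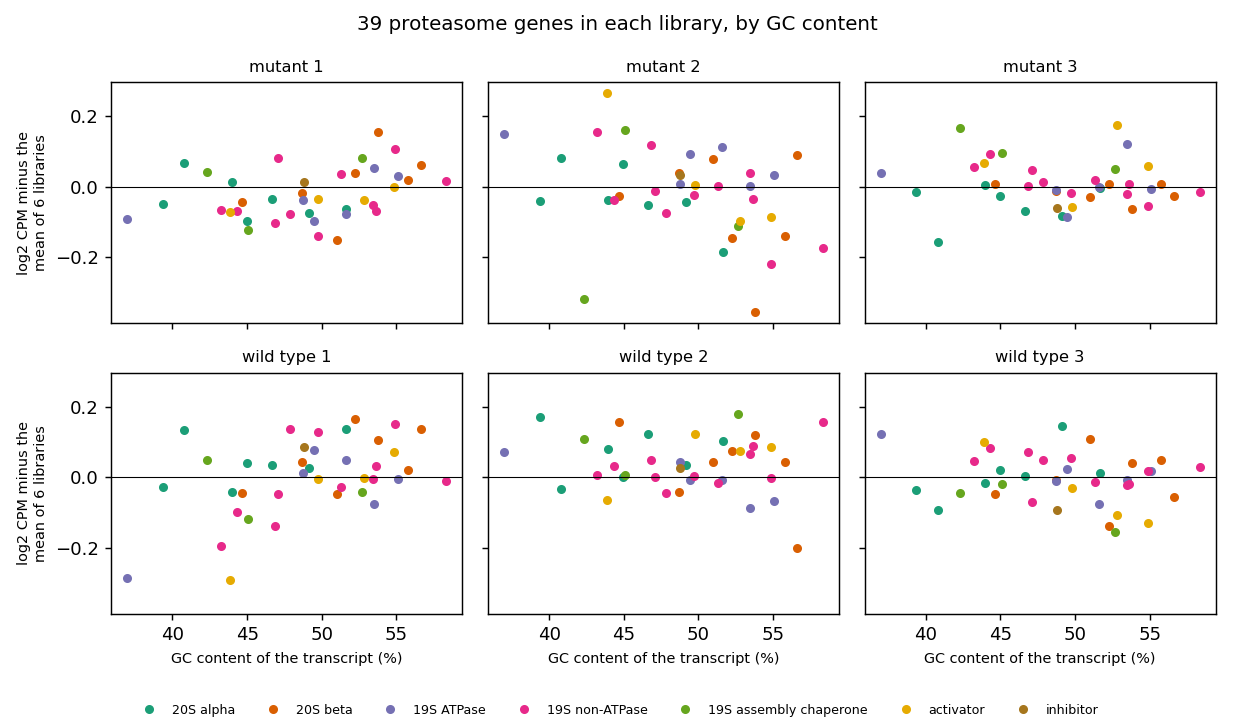
Deviation of each of the 39 tested proteasome genes from its mean over the 6 libraries (log2 CPM) against the GC content of its transcript, with mutant libraries above and wild-type libraries below. Colours mark roles. The points slope down in mutant 2 (r = -0.37) and up in wild type 1 (r = 0.46).

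The immunoproteasome subunits, which were left out of the members, varied more between libraries than the subunits they replace. Psmb8 had 73.2, 50.6 and 73.1 CPM in the mutants, against 60.003, 60.9 and 40.03 CPM in the wild types, and Psmb9 had 19.7, 15.02 and 20.1 CPM in the mutants, against 18.1, 18.1 and 10.7 CPM in the wild types. Mutants 1 and 3 were the high libraries and wild type 3 the low one, while mutant 2 lay inside the wild-type range. The log2 fold changes were 0.29 ± 0.20 (SE) for Psmb8, 0.23 ± 0.23 for Psmb9 and 0.07 ± 0.11 for Psmb10, with edgeR adjusted p-values of 0.773, 0.829 and 0.893. Without wild type 3 they were 0.12 for Psmb8, 0.01 for Psmb9 and 0.03 for Psmb10.

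Taken as count ratios within a library, which need no scaling, Psmb8 over Psmb5 was 5.59, 3.79 and 5.94 in the mutants, against 4.35, 5.59 and 3.32 in the wild types. Psmb9 over Psmb6 was 0.278, 0.236 and 0.286 in the mutants, against 0.255, 0.251 and 0.148 in the wild types. Psmb10 over Psmb7 was 0.312, 0.265 and 0.284 in the mutants, against 0.293, 0.269 and 0.259 in the wild types. The groups overlapped for each ratio, and exact permutation tests gave p = 0.5, 0.3 and 0.6 in this order (two-sided, adjusted p = 0.6 over the 3 ratios). The mean log2 difference was 0.21 for Psmb8 over Psmb5 and 0.33 for Psmb9 over Psmb6, and without wild type 3 it was 0.02 and 0.07. Per kilobase of transcript the median ratio was 2.74 for Psmb8 over Psmb5, 0.149 for Psmb9 over Psmb6 and 0.245 for Psmb10 over Psmb7. Psmb8 thus exceeded its constitutive counterpart in every library while the other 2 stayed below theirs, and Psmb5 is the beta subunit with the low level described above. The median deviation of 13 interferon response genes was 0.38, -0.11 and 0.17 (log2) in mutants 1, 2 and 3, against -0.06, 0.04 and -0.31 in wild types 1, 2 and 3. In mutant 1 and wild type 3 this median was the value of Tap1 itself. Tap1 and Tap2 are on the list and lie on chromosome 17, as do Psmb8 and Psmb9, so the list is not separate from these subunits. Mutant 3 had Psmb8 and Psmb9 as high as mutant 1, with 23.7 CPM of leukocyte markers in place of 421 CPM. Of the 13 interferon response genes 11 had positive and 2 negative log2 fold changes, and 0 were called. The part of leukocytes in the level of mutant 1 was not tested.

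**Figure D5:**
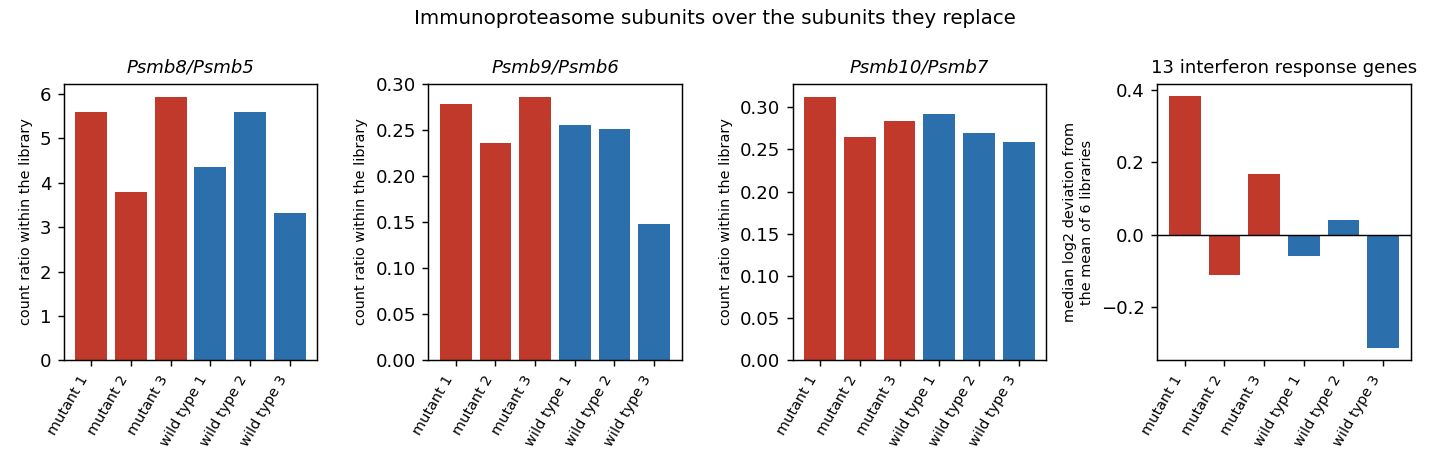
Count ratio of each immunoproteasome subunit to the constitutive subunit it replaces, and the median log2 deviation of 13 interferon response genes, in each library (red, mutant; blue, wild type; bars start at 0). Wild type 3 is the lowest library in all 4 panels, and mutants 1 and 3 are above mutant 2 in each. In mutant 1 and wild type 3 the median in the last panel is the value of Tap1.

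Other genes of the ubiquitin-proteasome system gave no call either. Of 5 genes of 20S assembly 2 had positive and 3 negative log2 fold changes, and Psmg4, a chaperone of alpha-ring assembly, had the smallest p, with 5.27, 3.68 and 4.06 CPM in the mutants, against 2.83, 3.56 and 2.77 CPM in the wild types. It was the 1 gene of the 5 whose groups did not overlap, against 11.7% of all tested genes. The margin was narrow, between mutant 2 with 86 counts and wild type 2 with 89 counts in libraries of different depth. The log2 fold change of Psmg4 was 0.50 ± 0.28 (SE, edgeR adjusted p = 0.739). Of 7 further 19S subunits and bound factors 3 were positive and 4 negative, between -0.11 for Shfm1 and 0.05 for Usp14. Of 7 regulators of proteasome genes 2 were positive and 5 negative. Nfe2l1 had 245.5, 282 and 281 CPM in the mutants, against 336, 284 and 271 CPM in the wild types, with overlapping groups and a log2 fold change of -0.14.

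Of 14 genes of ubiquitin, its activation and its shuttle proteins 2 had positive and 12 negative log2 fold changes, with a median of -0.12 and 0 called. In 5 of the 14 the groups did not overlap, against 11.7% of all tested genes, and all 5 were lower in the mutants, among them Ubqln2, Ufd1l, Ubb and Uba1. Ubqln2, which carries ubiquitin-tagged proteins to the proteasome, had 40.5, 44.1 and 41.2 CPM in the mutants, against 51.3, 47.3 and 45.5 CPM in the wild types. Its log2 fold change was -0.20 ± 0.08 (SE, edgeR adjusted p = 0.737).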

How the data were processed

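The files held raw read counts per gene symbol, 1 file per library, as deposited by the authors without normalization. The submitters' processing notes name the mm9 genome, CASAVA and DESeq2. The sources used here do not name the aligner, counter, annotation or strand setting, so overlapping genes and near-identical copies can share reads. Groups came from the sample titles.

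After filterByExpr and TMM scaling, mutants were compared with wild types by the quasi-likelihood F-test of edgeR 4.0.16 (R 4.3.3, two-sided), and p-values were adjusted by Benjamini-Hochberg over the 12899 genes left. Standard errors are the log2 fold change divided by the square root of F. CPM values are TMM-normalised, except marker sums, which use library totals. With library totals of 22511461 to 30695994, 3 counts correspond to 0.0977 to 0.133 CPM, counting error only. Sums over roles and ratios were compared by exact permutation over libraries, or by exact sign flips where libraries were paired by number. Transcript lengths, coding lengths and GC content came from GENCODE M21, using the longest principal transcript, and promoter windows from RefSeq. No coordinate of the counts was used.

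Replicates of a group differed by 18.4 to 76.7 chi-square per degree of freedom, so none was counted as a repeat. Libraries that share a number deviated from their group means together, with correlations of 0.31, 0.21 and 0.17. Libraries with different numbers were not compared in this way. Deviations from a group mean cancel out over its libraries, so those comparisons would have to go the other way on average. A pairing by number rests on these data alone and is not established. Full values were given for Psmb5, Psmb6 and Psmb7, for the members with the smallest p and highest CPM of each role, and for the 8 members with the smallest p. Other genes named were chosen after their values were seen. The members and lists were chosen with earlier results of these data known. The procedure was tested on simulated counts. Alternatives were DESeq2 1.42.0, limma-voom 3.58.1, other scaling factors and filters, robust dispersion, the replicate block, GC correction and leaving out libraries.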

Additional observations from a re-analysis of the deposited data

How the results depend on the processing

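No member was called under any of the alternatives run, with lowest member adjusted p-values from 0.51 in limma-voom to 0.998 with mutant 1 and wild type 2 both left out. The fit with the replicate block called 0 members, with a median log2 fold change of -0.02, and changed no call. Over all genes DESeq2 called 38, and leaving out 1 library called 0 to 1 (1 without wild type 3). The members' median log2 fold change ranged from -0.055 (without wild type 3) to -0.0073 (without wild type 2) when libraries were left out in turn. It was 0.0049 with mutant 1 and wild type 2 both left out, an alternative added after seeing the data, as was GC correction. The number of members above 0, 14 of 39, was 12 to 16 under the other alternatives and 20 with both of those libraries left out, where 5 of 7 alpha subunits stayed below 0. The members whose groups did not overlap were 7 with TMM, 7 with DESeq2 size factors and 2 with upper-quartile factors, a comparison added after seeing the data. Values near 0 changed sign. Without a filter Psmb7 had -0.0038. With libraries left out in turn, Psmb7 ranged from -0.017 to 0.028, Psme1 from -0.091 to 0.013, Psmf1 from -0.063 to 0.028, Psmb5 from -0.0051 to 0.170 and Psmb1 from -0.083 to 0.022. With mutant 1 and wild type 2 both left out, Psmb5 had -0.0027, Psma2 0.011, Psmb1 0.045, Psme1 0.021 and Psmb10 -0.0043. With GC correction Psme1 had 0.00079 and Psmf1 0.0040, and with GC correction and the replicate block Psme1 had 0.0023 and Psmf1 0.0055. With libraries left out in turn, the log2 ratio of the ATPase sum ranged from -0.0050 to 0.047 and that of the inhibitor from -0.060 to 0.030. The cause was not tested. With 3 libraries a group the exact permutation tests cannot go below p = 0.1, and the sign-flip tests cannot go below p = 0.25. Psmb11 was too low at this depth for a test.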
